A study of Branchiostoma lanceolatum with 8 samples.

Results

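The early answer of amphioxus ectoderm to Activin was read here from chromatin accessibility at 11 hours post fertilization (hpf), a gastrula stage. The data are the 3897 regions that the authors listed as differing between Activin-treated and control ectodermal explants at that time. Every row of the 11 hpf list was used, with no selection on the fold change. The series holds 11149 listed regions in all, and the other 7252 belong to the 19 hpf list. The assay was ATAC-seq, in which a transposase cuts open chromatin and tags it for sequencing. At 11 hpf there were 2 control libraries and 2 libraries of explants given human recombinant Activin at 50 ng per mL. All 4 came from ectodermal explants of Branchiostoma lanceolatum, a cephalochordate. The labels describe the extraction as made from embryos, name the source as explants, and do not say whether a group's libraries came from separate spawnings. They give neither the start nor the length of the treatment.

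Activin belongs to the TGF-beta family. It binds the receptors that Nodal uses, and these phosphorylate SMAD2 and SMAD3, which enter the nucleus with SMAD4 and bind DNA together with partner factors such as FOXH1. In vertebrate gastrulae this route switches on mesendodermal and organizer genes, among them goosecoid, brachyury, and the feedback inhibitor lefty. In amphioxus the same route can turn explanted ectoderm from epidermis towards neural fate. None of these genes can be placed in the list: it names scaffolds and positions with no genes, and the gene table used here is of another assembly. The labelled tissue could therefore not be checked against its markers, and no regional sequence is shown.

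Each region carries 1 signed value, read as the authors' log2 fold change. The source does not state which treatment is the numerator, so positive and negative below are signs as deposited, and no sign is read as gain or loss of accessibility under Activin. The list has no values per library, no counts and no p-values. Depth is thus unknown, no test over libraries could be made, and each region rests on the authors' comparison of 2 against 2 libraries. Differences between classes of regions below were not tested, because regions are not replicates. Intervals on shares are exact Clopper-Pearson 95% intervals over regions. They cover counting error only, and they are too narrow where neighbouring regions move together.

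The early list leaned to the negative side. The region names carry numbers that increase along the scaffolds, and these were read as running numbers of a wider set of regions, which no source states. The highest at 11 hpf is 111831, so under this reading the list holds at most 3.48% of the numbered regions. Negative regions made up 2.38% and positive regions 1.11% of the numbers. There were 2660 negative and 1237 positive regions. The listed DNA added up to 1.95 Mb in negative and 0.910 Mb in positive regions.

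Most changes were moderate in size, and the lean to the negative side grew with size. The middle 80% of negative regions had absolute log2 values from 1.43 to 3.12, which is 2.70-fold to 8.67-fold. The same span for positive regions was 1.33 to 2.63, or 2.51-fold to 6.20-fold. Below an absolute log2 of 1.5, 41.7% of 635 regions were positive (interval 37.9 to 45.7%). From 1.5 to 2 the share was 36.9% of 1306 regions, and from 2 to 2.5 it was 30.5% of 1062. From 2.5 to 3 it was 21.6% of 505 regions (18.1 to 25.4%), and from 3 to 4 it was 14.7% of 327 (11.0 to 19.0%). At 4 or more, which is a change of at least 16-fold, 9 of 62 regions were positive, or 14.5% (6.86 to 25.8%). The positive share was thus lower in each larger size class, and the last 2 classes had nearly the same share.

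Width went with the size of the fold change in both directions, while the positive share was nearly the same in every width quartile. A region's width bears on how many reads it can hold. In the narrowest quartile, 125 to 366 bp, the median absolute log2 was 2.38 for negative and 2.11 for positive regions. In the widest quartile, 964 to 3714 bp, the medians were 1.72 and 1.52. The negative median was the larger in all 4 quartiles. The positive share stayed between 30.8% and 33.1% over the 4 quartiles. Below 200 bp it was 34 of 213 regions, or 16.0% (interval 11.3 to 21.6%). The narrowest positive region was 166 bp wide and the narrowest negative one 125 bp. The 200 bp limit was picked after the plot of fold change against width was seen. Regions under an absolute log2 of 1.5 had a median width of 1048 bp, and those at 4 or more had one of 270.5 bp.

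**Figure D1:**
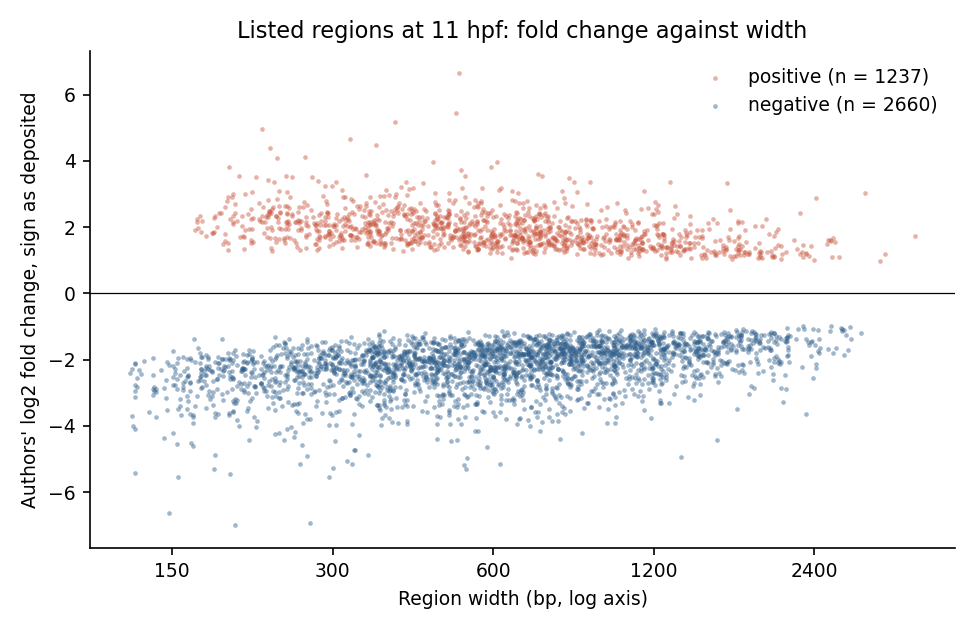
Each point is 1 region listed at 11 hpf, with its width in bp on a log axis and the authors' log2 fold change, sign as deposited, on the other. Both clouds narrow towards 0 as regions widen, and the empty band around 0 reflects that only regions called by the authors are listed.

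The strongest regions were narrow and differed among themselves in their surroundings. The 10 largest positive values ran from 3.98 to 6.64, in regions of 221 to 609 bp, and the 10 largest negative ones from -5.28 to -7.00, in regions of 128 to 533 bp. The largest positive value, 6.64, was on scaffold Sc0000116 (284804 to 285321). It stood alone, with no listed region within 10 kb, as did the next 3, on Sc0000112, Sc0000003 and xpSc0039672. The fifth, 4.65 on Sc0000102 (59033 to 59356), was the end of a row of 7 regions, with gaps of at most 10 kb, whose other 6 were all negative. The sixth and seventh lay in 1 row of 10 positive regions on Sc0000013, with 4.47 (1997266 to 1997627) and 4.37 (1992841 to 1993069). The eighth was 4.12 on Sc0000102 (383464 to 383729) and the tenth was 3.98 on Sc0000114 (793942 to 794550), each beside 1 other positive region. The ninth, 4.10 on Sc0000750 (24029 to 24264), was again alone. So 5 of these 10 had another listed region within 10 kb, against 40.3% of all positive regions. Of the 10, 4 were listed again at 19 hpf, against 15.5% of all positive regions and 19.7% of the quartile with the largest values. With 10 regions these counts are a description only.

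On the negative side 6 of the 10 had a listed neighbour within 10 kb, and these neighbours were all negative. Of all negative regions 52.9% had such a neighbour. Neighbouring pairs within 10 kb had the same sign in 87.4% to 99.4%, depending on the gap, so neither trait is particular to the strongest regions. The most negative, -7.00 on Sc0000157 (101562 to 101758), lay in a row of 4, as did the third, -6.63 on Sc0000300 (124707 to 124854). The fourth, -5.55 on Sc0000005 (1910117 to 1910270), was one of 10 in a row. The fifth, -5.53 on Sc0000160 (567739 to 568033), and the sixth, -5.46 on Sc0000025 (1964711 to 1964903), each belonged to a pair. The seventh, -5.43 on Sc0000008 (2626892 to 2627019), was one of 5. The second, -6.93 on Sc0000034 (1356446 to 1356717), was alone. So were the eighth, -5.31 at the very start of Sc0000226 (3 to 182), the ninth, -5.29 on Sc0000008 (4466379 to 4466911), and the tenth, -5.28 on Sc0000151 (10357 to 10657). Of the 10, 3 were listed again at 19 hpf, with -3.12 for the fifth, -4.80 for the ninth and -2.61 for the tenth. Among all negative regions the share listed again was 54.6%, and in the quartile with the largest absolute values it was 59.1%.

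The 10 widest regions were mostly weak, with a median absolute log2 of 1.22. They held 4 positive and 6 negative regions of 2728 to 3714 bp. The widest, on Sc0000054 (1577951 to 1581664), had 1.73 and lay in a row of 6 positive regions. The next were on Sc0000005 (3065084 to 3068337) with 1.18 and on Sc0000178 (53082 to 56269) with 0.98, the smallest positive value of the list. One wide region stood apart from the other 9. On Sc0000219 (239267 to 242251), 2985 bp wide, the value was 3.02, an 8.11-fold difference. The 6 negative ones had -1.18 on Sc0000143 (246975 to 249913), -1.39 on Sc0000557 (45295 to 48103) and -1.02 on Sc0000068 (980951 to 983755). The last 3 had -1.72 on Sc0000652 (45662 to 48431), -1.25 on Sc0000010 (1378503 to 1381251) and -1.09 on Sc0000379 (5286 to 8013).

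Positive regions took a larger part of the list on short scaffolds. Scaffold lengths were not used here, so a scaffold's span is taken as far as its last listed position at 11 or 19 hpf. On scaffolds of 3 Mb or more, 23.3% of 1238 regions were positive (interval 20.9 to 25.7%). The share was 30.9% of 1070 regions from 1 to 3 Mb and 27.7% of 538 from 0.5 to 1 Mb. It was 43.3% of 467 regions from 0.2 to 0.5 Mb and 45.7% of 584 (41.6 to 49.9%) under 0.2 Mb. With an absolute log2 of at least 2, a threshold chosen after the data were seen, the shares were 16.5% at 3 Mb or more and 39.4% under 0.2 Mb. The median absolute log2 was 2.10 on the longest and 1.88 on the shortest scaffolds, and median width was 559.5 and 687 bp. In the 19 hpf list, from other libraries, the positive share was 5.30% at 3 Mb or more and 16.6% under 0.2 Mb. The regions whose signs are counted, at both times, also set the span classes. The 19 hpf shares are therefore not a separate check.

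Under the same reading of the numbers, the listed share of negative regions varied more than that of positive ones. The numbers increase from scaffold Sc0000000 on, and they were divided into blocks of 10000. Negative regions took 3.22% of the numbers in the first block, 3.79% in the third, 2.0% in the eighth and 0.92% in the eleventh. Positive regions took 1.05%, 1.00%, 1.49% and 0.81% of the same blocks. Over the first 11 blocks the positive part stayed between 0.81% and 1.49%, whereas the negative part spanned 0.92% to 3.79%. The last block is a remnant of 1831 numbers, on scaffolds whose names begin with xf or xp, and it held 43 positive and 32 negative regions (2.35% and 1.75%). Whether the short scaffolds differ in gene content, repeats or copy number was not tested.

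**Figure D2:**
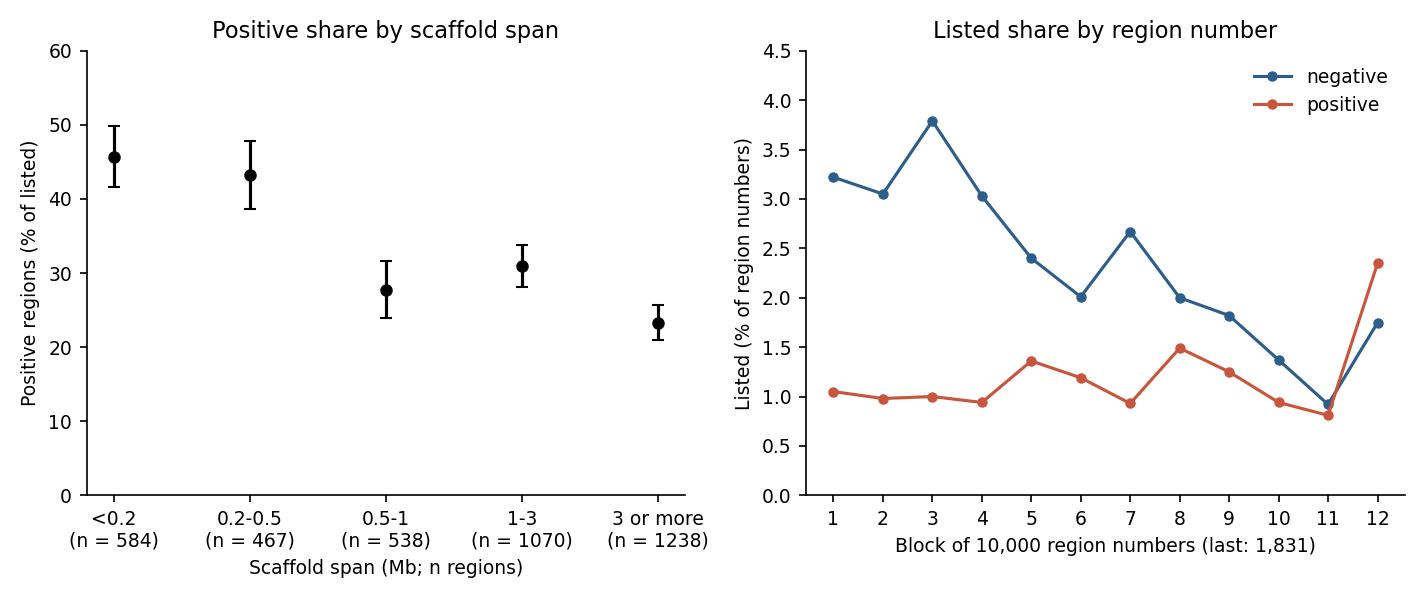
Left, the share of listed regions that are positive (%, with exact 95% intervals over regions) by scaffold span in Mb; right, listed positive and negative regions as % of the region numbers in successive blocks of 10000 numbers. The positive share is 23.3% on the longest and 45.7% on the shortest scaffolds, and over the first 11 blocks the negative line runs from 3.79% to 0.92% while the positive line stays between 0.81% and 1.49%.

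Most well-covered scaffolds carried both directions. Of 708 scaffolds, 321 had 1 listed region. Of the other 387, 229 held both signs, 105 were all negative and 53 all positive. The 93 scaffolds with at least 10 regions held 2373 of the 3897 regions. Of these 93, 87 held both signs, 85 had more negative and 8 more positive regions. The 3 with most regions had similar make-up, with 37 positive of 123 on Sc0000001, 28 of 86 on Sc0000005 and 26 of 82 on Sc0000000.

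A few scaffolds departed far from that make-up. All 20 listed regions on Sc0000219 were positive, with a median log2 of 2.34, and they lay among 54 consecutive numbers. Next came Sc0000170 with 8 positive of 10, Sc0000054 with 13 of 18, Sc0000062 with 13 of 19 and Sc0000073 with 11 of 17. At the other end all 33 regions on Sc0000039 were negative, with a median of -2.13, spread over 423 numbers. The 14 on Sc0000141 and the 10 each on Sc0000088, Sc0000130 and Sc0000158 were negative as well. On Sc0000158 the 10 lay within 53 numbers, while on Sc0000088 and Sc0000130 they spread over 193 and 196. These scaffolds were picked for their shares, which are a description.

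The share of neighbours with the same sign was highest at close range and lower at larger gaps. The list's split of signs alone would give 56.7%. Of 3189 neighbouring pairs on 1 scaffold, 750 were at most 2 kb apart, and 5 of these had opposite signs. Some close neighbours overlapped 1 and the same 19 hpf region, as on Sc0000013 (1988584 to 1989712 and 1990028 to 1990194). Whether such pairs are pieces of 1 region was not tested. The same sign was found in 99.4% of pairs with a gap up to 0.5 kb and in 99.3% from 0.5 to 2 kb. It was found in 96.9% from 2 to 5 kb (interval 93.9 to 98.6%), in 87.4% from 5 to 10 kb (82.0 to 91.7%) and in 76.8% from 10 to 20 kb (70.9 to 82.0%). From 20 to 50 kb it was 69.0%, from 50 to 100 kb 59.2% (54.3 to 64.0%), and beyond 100 kb 59.7% (56.5 to 62.8%). The share was thus lower in each class from 2 to 50 kb, and the intervals of the last 2 classes include 56.7%. That figure takes the split of the whole list, whereas pairs lie within scaffolds. The positive share was 23.3% on the longest and 45.7% on the shortest scaffolds, and a figure by scaffold was not computed. Counted in region numbers, consecutive regions had the same sign in 98.5% of 872 pairs, regions 3 numbers apart in 84.9% of 146, and regions 11 to 20 apart in 59.95% of 437.

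**Figure D3:**
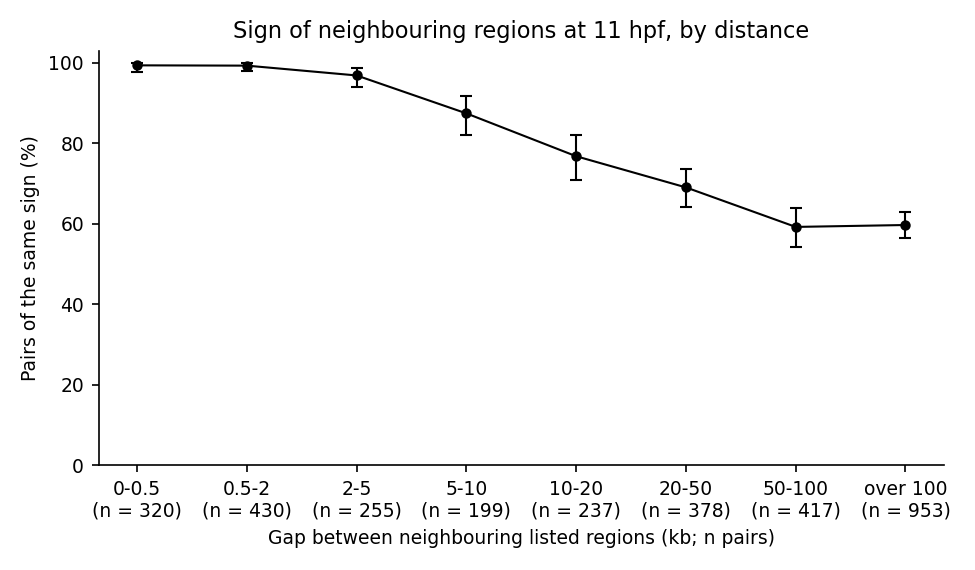
Percentage of neighbouring listed pairs that share their sign, by the gap between them in kb, with exact 95% intervals over pairs and the number of pairs under each class. The share is 99.4% in the closest class and 59.2% and 59.7% in the 2 classes beyond 50 kb.

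Neighbours of the same sign still differed in size. Among same-sign pairs within 10 kb, Spearman's rho of the absolute log2 was 0.20 over 869 negative pairs and 0.23 over 297 positive pairs. These are descriptions across pairs that share libraries and loci. The median difference within a pair was 0.54 in negative and 0.42 in positive pairs. Widths were nearly unrelated, with rho of -0.08 and 0.00.

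About every other region belonged to a chain, taken here as 2 or more listed regions with gaps of at most 10 kb. Chains held 1907 regions (48.9%, interval 47.4 to 50.5%) in 703 chains, and 1990 regions stood singly. Of the negative regions 52.9% were in chains, and of the positive ones 40.3%. Membership depends on how densely regions are listed, and negative regions were the more numerous. There were 434 chains of 2, 156 of 3 and 113 of 4 or more, and the longest had 11 regions. All-negative chains numbered 501 and all-positive ones 166, so that 94.9% had 1 sign (93.0 to 96.4%), and 36 chains were mixed. In chains of 4 or more, the listed regions were 75.2% of the numbers spanned. This share was 81.0% in chains of 2 and 74.3% in chains of 3. A chain by rule begins and ends on listed regions and has short gaps, which raises the share by itself.

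Values were larger in longer chains. Single negative regions had a median absolute log2 of 1.95, those in chains of 2 had 2.15, those in chains of 3 had 2.22 and those in chains of 4 or more had 2.27. The positive medians were 1.80, 1.84, 1.92 and 1.96. Single regions were also somewhat wider, with medians of 662 bp against 580 bp in chains of 4 or more for negative regions, and 607 against 565 bp for positive ones. Narrower regions had larger values in this list, and the part of width in this order was not tested. Within the 250 one-sign chains of 3 or more, the median distance from the lowest to the highest log2 was 1.02.

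The 2 longest positive chains had 10 regions each. On Sc0000013, from 1988584 to 2006623, the log2 values along the scaffold were 1.37, 2.16, 4.37, 2.48, 3.25, 4.47, 3.09, 2.01, 2.81 and 2.65. The largest values lay inside this chain and not at its ends. It took 10 of 12 consecutive numbers over 18.04 kb, and its first 8 regions had consecutive numbers, the longest such run of the list. On Sc0000219, from 233402 to 260100, the values were 2.89, 2.41, 2.38, 3.59, 3.02, 2.87, 1.92, 1.45, 1.75 and 1.91. The first 6, whose numbers are consecutive, were all higher than the last 4. This chain took 10 of 11 numbers, and its regions were wider, with a median of 715.5 bp against 323 bp on Sc0000013.

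The next 3 positive chains had fewer regions and lower medians, with ties in number broken by the larger median absolute log2. On Sc0000073 (716135 to 735676) 7 regions ran from 1.29 to 2.59. On Sc0000676 (16343 to 40012) 7 regions with consecutive numbers ran from 1.14 to 1.91, the lowest median of the 5, at 1.47. On Sc0000072 (115073 to 133722) 6 regions ran from 1.40 to 3.17. Of the 10 regions on Sc0000013, 6 overlapped a 19 hpf region, all positive and 5 of them distinct. The count was 2 of 10 on Sc0000219, 2 of 7 on Sc0000073, 2 of 6 on Sc0000072 and 0 of 7 on Sc0000676. Among all positive regions in chains of 4 or more, 17.4% overlapped a 19 hpf region.

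The longest negative chain had 11 regions on Sc0000000, from 8726730 to 8772797. Its values were -2.73, -3.02, -3.53, -2.91, -2.06, -1.69, -2.88, -2.04, -1.88, -2.31 and -2.43. It was also the loosest of the named one-sign chains, with 11 of 22 numbers over 46.07 kb. On Sc0000005 (1901036 to 1923132) the 10 values were -1.91, -4.38, -3.06, -3.93, -5.55, -3.48, -1.47, -2.15, -1.96 and -1.81. The second to sixth values were all below -3, and the last 4 lay between -2.15 and -1.47. On Sc0000016 (497831 to 513192) the 10 values were close together, from -2.96 to -1.70, in 10 of 11 numbers. A second run on the same scaffold (650300 to 670760) had 7 consecutive numbers and values from -4.02 to -1.66. The longest runs of consecutive negative numbers were these 7, the 7 at the end of the first chain (502295 to 513192), and 6 on Sc0000388 (197146 to 206503), with a median of -2.57.

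The remaining negative chains of the first 5, with ties broken in the same way, were on Sc0000158 (560124 to 592550), with 9 regions from -4.58 to -1.04, and on Sc0000129 (65456 to 89960), with 8 from -3.13 to -1.62. Values within 1 locus could thus differ widely. On Sc0000158 the weakest region, -1.04, was 2130 bp wide and was followed by the strongest, -4.58, which was 263 bp wide. Overlap with negative 19 hpf regions was 8 of 11 on Sc0000000, 5 of 10 on Sc0000005, 4 of 10 on Sc0000016, 4 of 9 on Sc0000158 and 5 of 8 on Sc0000129. Among all negative regions in chains of 4 or more, 58.8% overlapped a 19 hpf region.

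**Figure D4:**
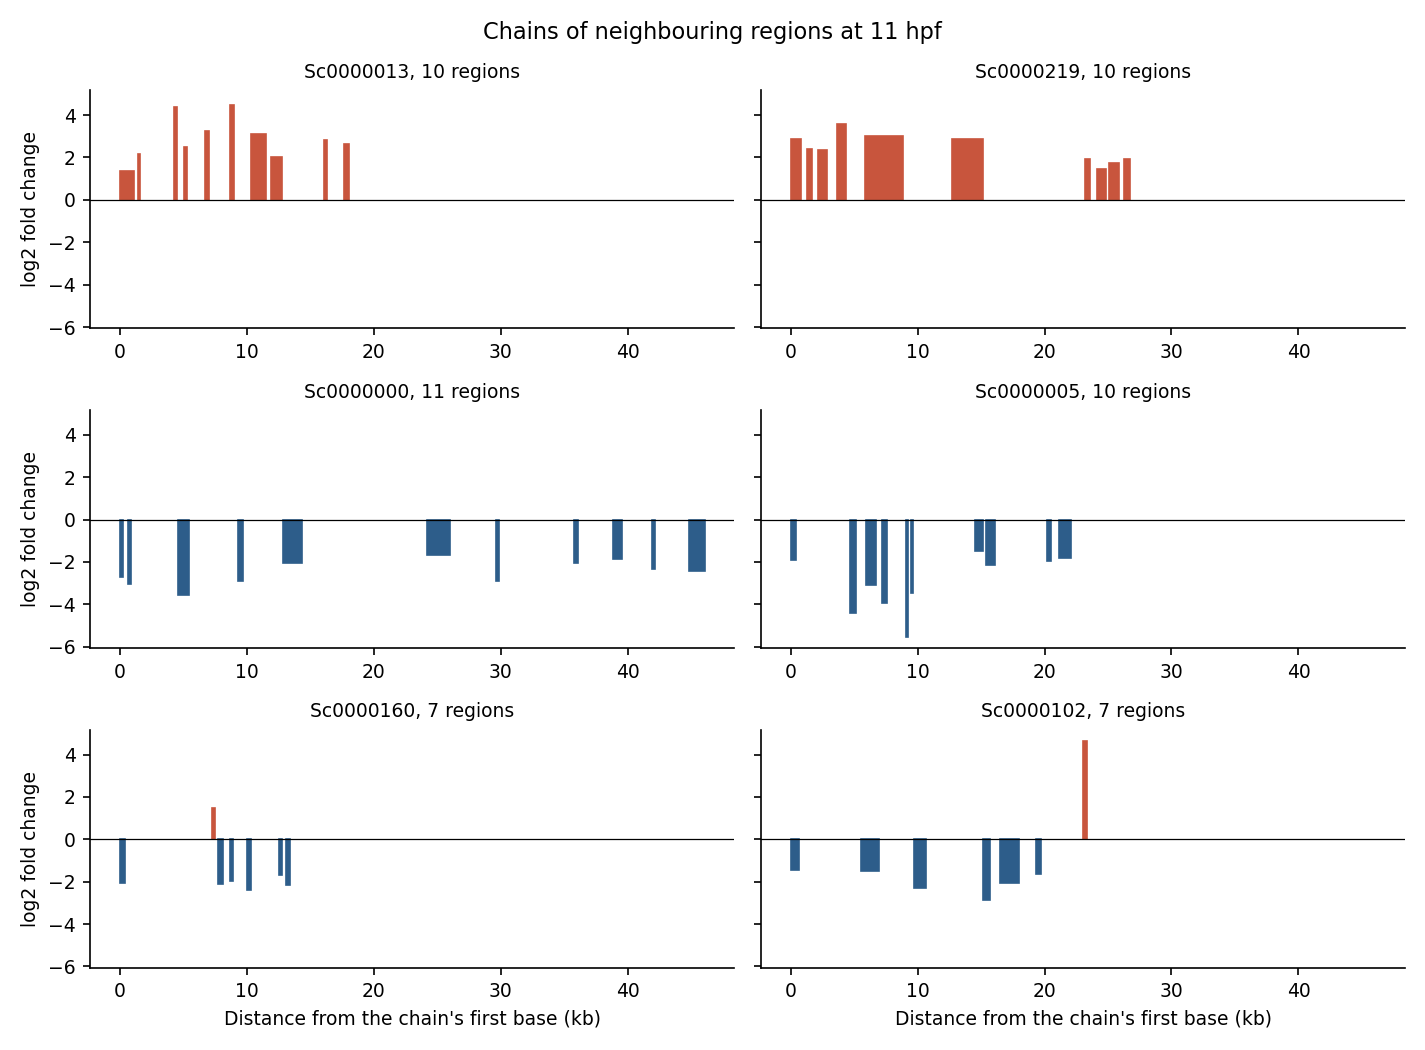
Each bar is 1 listed region, drawn to its width, at its distance in kb from the first base of its chain, with the authors' log2 fold change as height (sign as deposited). The upper 4 panels are the 2 longest positive and the 2 longest negative chains, and the lower 2 are the longest mixed chains, in each of which 1 positive region lies with 6 negative ones.

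Mixed chains were few. The 36 held 105 regions, and 17 of the 36 were pairs, against 417 of the 667 one-sign chains. Their 38 changes of sign lay across wider gaps than pairs of equal sign, with a median of 6.09 kb against 1.18 kb. On Sc0000160 (183106 to 196485) a single positive region of 187 bp, at 1.48, lay among 6 negative ones from -2.40 to -1.67. On Sc0000102 (36006 to 59356) 6 negative regions from -2.88 to -1.46 were followed by the positive one at 4.65. At 19 hpf that region was positive again, at 3.33, and the 3 negative regions that recurred there were negative. On Sc0000242 (86074 to 103361) 4 positive regions from 1.78 to 2.33 were followed by 1 negative one at -2.72. On Sc0000287 (149051 to 162419) 1 positive region at 1.45 preceded 3 negative ones from -2.52 to -1.85. On Sc0000137 (779166 to 796675) the chain was divided evenly, with 3.73 and 3.11 followed by -3.14 and -2.55.

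Opposite changes in nearly adjoining regions occurred at 5 places with gaps under 2 kb. The closest pair, on Sc0000182, was 178 bp apart, with 2.15 (12023 to 12259) and -1.18 (12438 to 12976). At 19 hpf both overlapped negative regions, with -2.97 and -2.52. The next pair, 278 bp apart, was within the mixed chain on Sc0000160, with 1.48 (190404 to 190590) and -2.10 (190869 to 191242). On Sc0000073 the gap was 974 bp, between 2.54 (515805 to 516942) and -2.19 (517917 to 518208). On Sc0000011 it was 1769 bp, between 1.996 (172134 to 172315) and -2.37 (174085 to 175034). On Sc0000030 it was 1879 bp, between 1.63 (505398 to 506217) and -3.02 (508097 to 509407). In all 5 the positive region came first along the scaffold, an order with no meaning for strand, which the list does not give.

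Overlap of the early regions with the 19 hpf list was then described by size and width, counted from 1 bp. Each 11 hpf region was counted, also where neighbours shared 1 partner at 19 hpf. The 19 hpf list itself holds 7252 of at least 87262 numbered regions, or at most 8.31%, with 0.78% positive and 7.53% negative. Over the quartiles of absolute log2, from the lowest up, 52.6%, 51.3%, 55.3% and 59.1% of the negative regions overlapped. The intervals of the lowest (48.8 to 56.5%) and the highest (55.3 to 62.9%) overlap each other. In the same order 9.03%, 14.2%, 19.1% and 19.7% of the positive regions overlapped. The interval was 6.09 to 12.8% in the lowest positive quartile and 15.5 to 24.6% in the highest. These cannot be set against the 8.31%, which is a share of the 19 hpf list's own numbered regions. How often any numbered 11 hpf region would overlap is not known, as only listed ones have positions. Overlap with a positive 19 hpf region was 5.48% in the lowest and 19.1% in the highest positive quartile. Of the 28 that overlapped in the lowest positive quartile, 17 were positive at 19 hpf, and of the 61 in the highest, 59 were. From the narrowest to the widest quartile, overlap was 44.1%, 53.9%, 57.4% and 63.0% in negative regions. In positive regions it was 19.8%, 14.4%, 17.2% and 10.7%, with no steady order. A wider region can touch another by 1 bp more readily, and the part of this in the shares was not tested. Chain membership made little difference for positive regions, with 15.2% for single ones and 17.4% in chains of 4 or more. For negative regions these shares were 51.0% and 58.8%. Control libraries of the 2 times were separate.

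**Figure D5:**
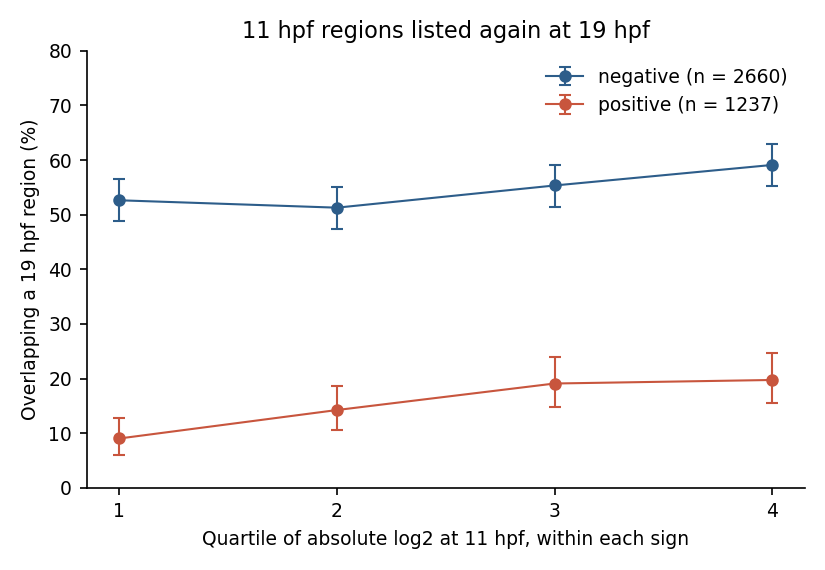
Percentage of 11 hpf regions that overlap a listed 19 hpf region by at least 1 bp, by quartile of absolute log2 at 11 hpf within each sign, with exact 95% intervals over regions. Negative regions run from 52.6% in the first to 59.1% in the fourth quartile, and positive regions from 9.03% to 19.7%.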

How the data were processed

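ATAC-seq libraries of control and Activin-treated explants at 11 hpf were compared by the authors, 2 libraries a group. BWA and DESeq2 are named, without versions, in the submitters' processing notes. Not given in the sources used here were the peak caller, genome build, threshold and pooling. The authors deposited for each region a signed value without a header, read as a log2 fold change. That the values are on a log2 scale is inferred from the tool and from their range, and the direction of the ratio is not stated.

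The members and classes were chosen with earlier results of these data known. Starts were made 1-based. Shares, medians, chains (gaps of at most 10 kb), runs of consecutive region numbers and overlaps (at least 1 bp, partner of largest overlap) were computed. The tools were Python 3.11.15, pandas 2.3.3 and SciPy 1.17.1. Only the linking of chains, the signs within them and the finding of overlaps of at least 1 bp were checked on simulated lists. Scaffold span used both lists. Named were, per direction, the 10 regions of largest absolute log2, the 5 chains with most regions and the 3 longest runs. Also named were the 10 widest regions, the 5 mixed chains with most regions, the 5 closest pairs of opposite sign, and the 5 scaffolds with the highest and the 5 with the lowest positive share among those with at least 10 regions. Alternatives were stricter fold changes, merged regions, long scaffolds, other gaps and other overlaps. Annotation classes and motifs were not analysed, since no genome of the files' build was used here.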

Additional observations from a re-analysis of the deposited data

How the results depend on the processing

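No paired analysis was possible because the list holds no values per library, and leaving out a replicate was not possible for the same reason. The annotation classes were not run, as no genome of the files' build was used here. Negative regions outnumbered positive ones under each alternative tried. The positive share (31.7% of the full list) was 29.8% with absolute log2 values from 1.5 up, 25.1% from 2 up and 26.1% on scaffolds whose last 11 hpf region ended at 1 Mb or beyond. With regions of 1 sign within 500 bp merged it was 32.6%, inside the interval of the full list. Raising the threshold to 1.5 and to 2 moved the median absolute log2, by construction, to 2.01 and 2.34 in positive and to 2.20 and 2.497 in negative regions. Means were 1.94 and 2.20. Median width moved from 597 bp to 525.5 and 451 bp in positive and from 608 bp to 563 and 484 bp in negative regions. The share of regions in chains (48.9%) was 42.5% with gaps up to 5 kb, 67.9% up to 50 kb, 37.4% with consecutive names, and 46.7% and 42.6% at thresholds of 1.5 and 2. The share of chains with 1 sign (94.9%) was 98.0% at 5 kb, 78.0% at 50 kb and 97.8% with consecutive names. Overlap with the 19 hpf list was counted whatever the sign there. In the same sign it was 13.7% of positive regions and, as in either sign, 54.6% of negative ones. Overlap in either sign, 15.5% of positive and 54.6% of negative regions, was 13.5% and 42.7% when 50% of both regions had to overlap. For positive regions it was 20% at an absolute log2 of 2. For negative regions it was 57.0% at 2 and 51.7% with midpoints within 500 bp. Without counts, the depth behind a fold change is unknown.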
